A study of Homo sapiens with 24 samples.

Results

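The genes described are 45 translation initiation and elongation factors of human cells, soluble proteins that bring ribosomes to mRNAs and carry peptide synthesis forward. Counted with them are 2 repressors that bind the cap-binding protein, and the main poly(A)-binding protein. The 45 genes were taken from a list of names, drawn up with earlier results of these data known. All 45 were found among the 57500 gene identifiers of each of the 24 count libraries. The libraries came from H2052, an established pleural mesothelioma line, from a cancer of the membrane around the lung. Every culture received 20 nM of a synthetic microRNA mimic, biotinylated at the 3′ side. In the treated cultures this was miR-497-5p (labelled miR-497-5p-RE, a suffix that the sources used here do not explain), and in the controls a scrambled sequence. Cells were collected at 72 h or 12 h. RNA that streptavidin held from a cytoplasmic extract was sequenced as the pull-down, and RNA of the cells as RNA-seq, with 3 libraries in each of the 8 groups.

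Initiation starts when eIF2, charged with GTP by the exchange factor eIF2B, brings the initiator tRNA to the small ribosomal subunit together with eIF1, eIF1A and the large scaffold eIF3. The cap is bound by eIF4E, which the scaffold eIF4G joins to the helicase eIF4A and, through PABPC1, to the poly(A) tail. The 4E-BPs compete with eIF4G for eIF4E. EIF5 and EIF5B drive start-codon selection and subunit joining, EIF6 keeps large subunits apart from small ones, and EEF1A1, EEF2 and EIF5A act during elongation. The mRNAs of many of these factors, like those of ribosomal proteins, begin with a C and a run of pyrimidines (a terminal oligopyrimidine or TOP tract), through which mTORC1 and LARP1 set their translation and stability. Members of the miR-15/16 family, to which miR-497-5p belongs, share a seed and are known as repressors of cell-cycle mRNAs.

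The mimic is shown first, because the seed sites below are defined from it. The mature human sequences are from RefSeq (GRCh38.p14), the capitals mark the seed (bases 2 to 8), and miR-16-5p is given as a relative with the same seed.

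hsa-miR-497-5p (chr17:7017979-7017999, minus strand): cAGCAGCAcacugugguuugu

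hsa-miR-16-5p (chr13:50049027-50049048, minus strand): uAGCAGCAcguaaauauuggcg

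A 3′ UTR pairs with this seed through TGCTGCT (a 7mer-m8 site) or TGCTGCTA (an 8mer site). On the mRNA strand of the longest annotated 3′ UTR in GENCODE, 8 of the 45 members (17.8%) held such a site, against 4378 of 19042 protein-coding genes (23.0%), with median UTR lengths of 1310 and 1240 bases. The 8 sites are listed as places where direct pairing could be looked for. Each is given in 30 bases of GRCh38 sequence written 5′ to 3′ with the match in capitals. Shorter matches, GCTGCTA (7mer-A1) and GCTGCT (6mer), were not counted as sites and occur in some other members. EIF3C, EIF4E and EIF4EBP2 hold a 7mer-A1. A match is a description of letters and not of binding.

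EIF1AX (7mer-m8, chrX:20128012-20128041, minus strand): aaaccatgcatTGCTGCTtttcctaccact

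EIF2S2 (7mer-m8, chr20:34088761-34088790, minus strand): aaaccaagaaaTGCTGCTtgtgtggtgctc

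EIF2B2 (7mer-m8, chr14:75009242-75009271, plus strand): gacttgagtgtTGCTGCTgaagcacatcct

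EIF2B5 (7mer-m8, chr3:184145260-184145289, plus strand): ttggctctttcTGCTGCTtgtatatgttaa

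EIF3A (7mer-m8, chr10:119035071-119035100, minus strand): aacacagaactTGCTGCTgtgttttttctt

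EIF3M (8mer, chr11:32603509-32603538, plus strand): ttggtattattTGCTGCTAgcgtttttttc

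EIF4B (7mer-m8, chr12:53040369-53040398, plus strand): attattttgcaTGCTGCTgcagcctttaaa

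EIF5A (7mer-m8, chr17:7312080-7312109, plus strand): aagggggtgggTGCTGCTtgtggtttagtc

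The 5′ ends are shown for the 9 members whose annotated start has the letters of a TOP tract, that is a C followed by at least 4 pyrimidines. Start positions were taken from RefSeq promoters (GRCh38.p14), which held 36 of the 45 members, and each line gives 15 bases before the start and 15 from it on, with the pyrimidine run from the start in capitals. Such a start was present in 9 of 36 members (25.0%), in 4.6% of 15843 protein-coding genes and in 42 of 62 cytosolic ribosomal protein genes (67.7%). EIF4G1, without such a run, is added for contrast. The name TOP-type is used below for a list of 10 members taken from background knowledge of TOP mRNAs and not from these starts: EEF1A1, EEF1B2, EEF1D, EEF1G, EEF2, PABPC1, EIF3E, EIF3F, EIF3H and EIF4B. Of the 6 of them with a promoter entry, 4 had the tract at the annotated start, and EEF1B2 and EEF1G did not.

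EEF1A1 (chr6:73521018-73521047, minus strand): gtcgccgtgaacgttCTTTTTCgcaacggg

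EEF2 (chr19:3985449-3985478, minus strand): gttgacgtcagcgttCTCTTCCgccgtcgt

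EIF3F (chr11:7987322-7987351, plus strand): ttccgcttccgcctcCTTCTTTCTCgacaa

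EIF4B (chr12:53006441-53006470, plus strand): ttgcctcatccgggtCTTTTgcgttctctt

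EIF2S3 (chrX:24054941-24054970, plus strand): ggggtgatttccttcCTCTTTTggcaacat

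EIF3D (chr22:36529152-36529181, minus strand): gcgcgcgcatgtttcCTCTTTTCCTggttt

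EIF3K (chr19:38619173-38619202, plus strand): ttccgtttccaccacCTCTTCCTgttcccg

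EIF3M (chr11:32583816-32583845, plus strand): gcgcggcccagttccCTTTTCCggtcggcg

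EIF4A2 (chr3:186783562-186783591, plus strand): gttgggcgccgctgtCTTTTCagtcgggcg

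EIF4G1 (chr3:184314591-184314620, plus strand): tctgtgcggggagccggaaatggttgtgga

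Total counts ran from 8262425 to 30650982 in the pull-down and from 21561816 to 30602007 in RNA-seq, the lowest being replicate 2 of the miR-497-5p pull-down at 72 h. The biological coefficient of variation was 0.349 in the pull-down and 0.06 in RNA-seq. Summed mesothelial and mesothelioma markers lay between 3835 and 5930 CPM (counts scaled to library size) in all 24 libraries, although CALB2 and UPK3B stayed low. The sums of these markers moved with the mimic at 72 h. In the pull-down they were 5774 to 5827 CPM with miR-497-5p against 4833 to 4857 CPM in controls. In RNA-seq they were 5829 to 5879 CPM against 3835 to 3873 CPM. Single markers were split. Of 8 tested at 72 h, 4 were called higher and 2 lower in RNA-seq, and 2 higher and 1 lower in the pull-down. The part of these markers in the results at 72 h was not tested. A list of 22 squamous epithelial markers summed to 15.9 to 539 CPM in miR-497-5p libraries at 12 h and to 17.2 to 556 CPM in control libraries at 12 h, against 6.23 to 15.2 CPM in all libraries at 72 h. In RNA-seq at 12 h it was 468, 15.9 and 29.9 CPM with miR-497-5p and 470, 485 and 195 CPM in controls. The sums thus varied between libraries and the arms overlapped, although 8 of the 22 markers were called lower with miR-497-5p there and 0 higher. In the pull-down at 12 h 0 of 20 tested were called. The part of these markers in the results at 12 h was not tested. Leukocyte markers summed to at most 12.4 CPM and hepatocyte markers to at most 5.57 CPM. Whether replicates came from separate cultures is left unsaid in the labels, so the p-values reflect the spread of these libraries, which may be technical. An mRNA level in bulk RNA cannot tell fewer cells that express a gene from less RNA per cell.

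At 72 h the translation factor mRNAs were rearranged and not shifted one way. In RNA-seq 22 members were higher and 22 lower with miR-497-5p, and PABPC1 was the single member without a call. A call is an adjusted p under 0.05 in edgeR's quasi-likelihood test over all genes. Over all 17335 genes tested 27.9% were higher and 29.6% lower at that time. In the pull-down at 72 h 14 members were higher and 10 lower, against 10.2% and 12.6% of 17477 genes. In RNA-seq at 12 h 11 members were higher and 4 lower, against 7.25% and 5.3% of genes, and scaling to library totals turned this split to 5 higher and 9 lower. The 11 became 6 without control replicate 2 and 7 without miR-497-5p replicate 3. In the pull-down at 12 h EIF3A alone was higher and no member was lower in edgeR, against 0.326% and 0.269% of genes. At an unadjusted p under 0.05, 3 members were higher and 2 lower there, and DESeq2 called 2 higher and 1 lower. The members' share of all counts was dominated by the most abundant of them, such as EEF1A1, PABPC1 and EEF2. In the pull-down at 72 h this share was 3.34 to 3.49% with miR-497-5p against 2.44 to 2.60% in controls. In RNA-seq at 72 h it was 3.23 to 3.31% against 3.04 to 3.09%.

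**Figure D1:**
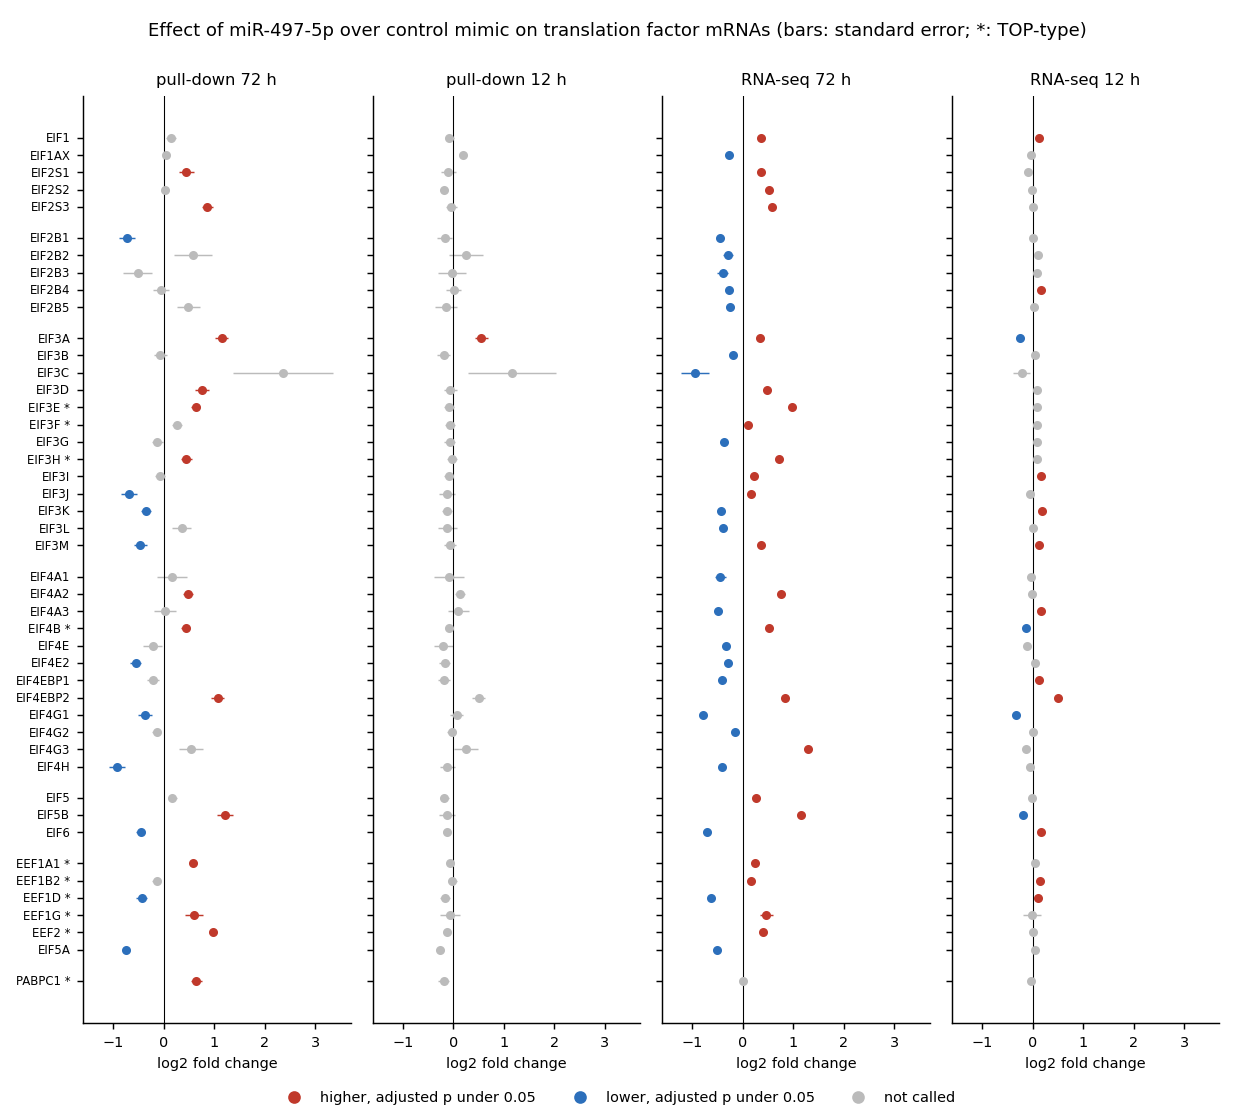
Log2 fold change of each of the 45 members, miR-497-5p over control (x axes, bars are the standard error, 3 libraries per arm), in 4 panels for pull-down and RNA-seq at 72 h and 12 h. Red and blue points passed the adjusted threshold of 0.05 and asterisks mark TOP-type members. Most points at 12 h sit near 0, and those of RNA-seq at 72 h spread from -0.96 to 1.28.

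The factors that deliver the initiator tRNA parted from the exchange factor that recharges them. All 3 eIF2 subunit mRNAs rose in RNA-seq at 72 h, and all 5 eIF2B subunit mRNAs fell. EIF2S3, the gamma subunit that binds GTP and the tRNA (ENSG00000130741, chrX:24054716-24077971, plus strand), had 588, 593 and 590.4 CPM in miR-497-5p libraries against 394, 399.9 and 394 CPM in controls, a log2 fold change of 0.58 ± 0.032, adjusted p = 2.05e-20. The pull-down held 188, 191 and 179 CPM of it with miR-497-5p at 72 h, against 105, 101 and 99.9 CPM in controls (0.86 ± 0.11, adjusted p = 2.23e-06). In both assays the arms did not overlap. EIF2S1, the alpha subunit whose phosphorylation blocks eIF2B, was higher by 0.36 ± 0.048 in RNA-seq and by 0.45 ± 0.15 in the pull-down at 72 h, the pull-down call ending when any single library was left out (adjusted p up to 0.1). EIF2S2, the beta subunit, rose by 0.51 ± 0.032 in RNA-seq while its pull-down values, 3243, 3211 and 3559 CPM with miR-497-5p and 3458, 3279 and 3117 CPM in controls, overlapped. Among the scanning factors EIF1 rose at 72 h (0.37 ± 0.030) and at 12 h (0.13 ± 0.030), and EIF1AX, with a 7mer-m8 site, fell at 72 h without passing at 12 h (-0.28 ± 0.035 and -0.035 ± 0.034 at 12 h).

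Log2 fold changes of the eIF2B subunits in RNA-seq at 72 h ran from -0.46 (EIF2B1) to -0.25 (EIF2B5), and without control replicate 2 the calls of EIF2B2 and EIF2B5 were lost, leaving 3 of 5. EIF2B1, the alpha subunit (ENSG00000111361, chr12:123620406-123633766, minus strand), had 45.8, 41.02 and 43.6 CPM with miR-497-5p and 58.8, 59.3 and 61.1 CPM in controls. In the pull-down it had 9.30, 14.03 and 12.3 CPM with miR-497-5p and 17.2, 21.3 and 19.4 CPM in controls (-0.73 ± 0.16, adjusted p = 0.00109). It was the lone eIF2B subunit called in the pull-down. EIF2B2 and EIF2B5, which carry 7mer-m8 sites, were not called there (0.58 ± 0.38 and 0.48 ± 0.23). At 12 h EIF2B4 was higher in RNA-seq, with 50.8, 49.9 and 54.1 CPM against 47.4, 45.7 and 44.8 CPM in controls (0.17 ± 0.056, adjusted p = 0.0397), and leaving out control replicate 2, control replicate 3 or miR-497-5p replicate 3 ended that call (adjusted p up to 0.205). Annotated exons of EIF2B1 and EIF2B2 overlap those of genes on the other strand by 15.6% and 23.6% of their bases, and the use of strand in counting is not stated.

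The 13 subunit mRNAs of eIF3 split 8 higher to 5 lower in RNA-seq at 72 h, with a median of 0.17 against 0.0026 for all genes, and 4 higher to 3 lower in the pull-down, with a median of 0.26 against 0. EIF3E and EIF3H, both TOP-type, had the largest rises of the 13 in RNA-seq. EIF3E (ENSG00000104408, chr8:108201216-108435333, minus strand) had 1848, 1901 and 1904 CPM with miR-497-5p in RNA-seq against 974, 969 and 959.7 CPM in controls (0.96 ± 0.030, adjusted p = 1.58e-29). EIF3H (ENSG00000147677, chr8:116642130-116766925, minus strand) had 996, 1017 and 1032 CPM against 643, 615 and 608 CPM in controls (0.71 ± 0.031, adjusted p = 3.36e-24). Both were also higher in the pull-down (0.63 ± 0.093 and 0.45 ± 0.10), but by less than in RNA-seq: the change in the pull-down minus that in RNA-seq was -0.35 ± 0.064, adjusted p = 0.00122 for EIF3E and -0.28 ± 0.062, adjusted p = 0.00523 for EIF3H. EIF3D, which can itself bind the cap of some mRNAs, had 108, 109.7 and 111 CPM in the pull-down with miR-497-5p and 63.97, 65.7 and 64.7 CPM in controls (0.76 ± 0.13, adjusted p = 0.000115), and it rose in RNA-seq too (0.47 ± 0.041).

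EIF3A, the largest subunit and a core of the complex (ENSG00000107581, chr10:119033670-119080823, minus strand), was the one member called in the pull-down at both times. It had 172, 172 and 193 CPM there with miR-497-5p at 72 h against 86.4, 75.2 and 81.1 CPM in controls (1.15 ± 0.13, adjusted p = 1.71e-07). At 12 h it had 33.02, 44.5 and 41.8 CPM against 27.7, 29.8 and 23.9 CPM in controls (0.55 ± 0.13, adjusted p = 0.0424). In neither case did the arms overlap. RNA-seq at 12 h went the other way, with 83.4, 80.9 and 78.2 CPM against 89.1, 98.97 and 101 CPM in controls (-0.25 ± 0.045, adjusted p = 7.01e-05), while at 72 h it had 95.9, 99.95 and 92.2 CPM against 76.9, 74.7 and 76.5 CPM (0.34 ± 0.047, adjusted p = 2.43e-08). Beyond its change in RNA-seq, EIF3A was higher in the pull-down by 0.79 ± 0.090 at 72 h (adjusted p = 9.52e-06) and by 0.83 ± 0.16 at 12 h (adjusted p = 0.0199), the single member called at 12 h, where 0.984% of 17078 genes were called higher and 0.357% lower. No member was called lower at 12 h in edgeR (4 at an unadjusted p under 0.05), and DESeq2 called 3. EIF3A carries the 7mer-m8 site printed above at position 950 of a 2369-base 3′ UTR. Its pull-down call at 12 h ended in 9 of 15 alternatives, among them the length offset and leaving out any library but miR-497-5p replicate 1 (adjusted p up to 0.158 over the alternatives), while the fold change stayed between 0.46 and 0.69. The 12 h call beyond RNA-seq ended in 6 of 20 alternatives, 5 of them leaving out 1 RNA-seq library, control replicate 2 or 3 or any of the miR-497-5p replicates (adjusted p up to 0.0877).

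EIF3J and EIF3M were the 2 members called in opposite directions by the assays at 72 h. EIF3J, a loosely bound subunit (ENSG00000104131, chr15:44537057-44563029, plus strand), had 861, 899 and 1316 CPM in the pull-down with miR-497-5p against 2080.1, 1531 and 1384 CPM in controls (-0.70 ± 0.16, adjusted p = 0.00378). In RNA-seq it had 125, 145 and 133 CPM against 118, 119 and 122 CPM in controls (0.17 ± 0.043, adjusted p = 0.000792). The pull-down arms were close, with 1316 CPM the highest value with the mimic and 1384 CPM the lowest without it. EIF3M, which has the one 8mer site of the list, had 47.1, 42.9 and 46.7 CPM in the pull-down with miR-497-5p and 56.4, 61.04 and 71.8 CPM in controls (-0.47 ± 0.13, adjusted p = 0.00895), a call lost without control replicate 3 (adjusted p = 0.07). It had 188, 192 and 201 CPM in RNA-seq with miR-497-5p against 154, 151 and 148 CPM (0.35 ± 0.036, adjusted p = 8.65e-12). EIF3K, which fell in both assays at 72 h (-0.36 ± 0.10 in the pull-down and -0.43 ± 0.042 in RNA-seq), lost its pull-down call without control replicate 1 or miR-497-5p replicate 2 or 3 (adjusted p up to 0.0706). It was higher in RNA-seq at 12 h, with 154, 146 and 152 CPM against 137, 126 and 134 CPM (0.19 ± 0.040, adjusted p = 0.000658). EIF3I had 256, 253 and 253 CPM against 228, 223 and 232 CPM in controls at 12 h (0.16 ± 0.034, adjusted p = 0.000715) and was 0.21 ± 0.034 at 72 h. EIF3B, EIF3G and EIF3L fell in RNA-seq at 72 h by 0.19, 0.37 and 0.40 on the log2 scale and were not called in the pull-down. EIF3F rose slightly (0.11 ± 0.030). EIF3C had 1.12, 0.423 and 0.868 CPM with miR-497-5p and 1.81, 1.57 and 1.33 CPM in controls (-0.96 ± 0.28, adjusted p = 0.00331). That value is uncertain, since a near-identical gene, EIF3CL, takes reads that cannot be placed uniquely, and without miR-497-5p replicate 2 its adjusted p was 0.0512.

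The 12 genes of the eIF4 group, which recognise the cap and unwind the leader, divided 4 higher to 8 lower in RNA-seq at 72 h, with a median of -0.32. Scaffolds, helicases and 4E-BPs each held members that moved apart. Of the scaffolds, EIF4G1 fell and EIF4G3 rose. EIF4G1, the main scaffold of cap binding (ENSG00000114867, chr3:184314495-184335358, plus strand), had 77.2, 75.3 and 75.2 CPM with miR-497-5p at 72 h against 129, 130.2 and 134 CPM in controls (-0.79 ± 0.040, adjusted p = 5.04e-22). At 12 h it had 167, 157 and 157 CPM against 199, 208 and 199 CPM (-0.33 ± 0.037, adjusted p = 5.72e-09), the largest fall of a member at that time. It fell in the pull-down at 72 h as well, with 122, 114 and 128 CPM against 159, 160.1 and 154 CPM in controls (-0.37 ± 0.13, adjusted p = 0.0472). That call ended when any single library was left out (adjusted p up to 0.141). Set against RNA-seq, its pull-down effect was higher by 0.40 ± 0.071 (adjusted p = 0.000854). EIF4G3, a paralog that can take its place, had 55.7, 56.6 and 53.7 CPM with miR-497-5p and 22.1, 22.5 and 23.8 CPM in controls in the 72 h RNA-seq libraries (1.28 ± 0.060, adjusted p = 4.46e-23), the largest rise of the 45. In the pull-down its change was 0.54 ± 0.24 (adjusted p = 0.116). EIF4G2, which initiates without cap binding, was lower by 0.15 on the log2 scale in RNA-seq.

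The helicases and their helpers also held members that rose and members that fell. EIF4A2 had 277, 276 and 270.1 CPM with miR-497-5p and 165, 162 and 158 CPM in controls (0.76 ± 0.037, adjusted p = 1.42e-22). Its pull-down level rose as well (0.48 ± 0.095, adjusted p = 0.000431). EIF4A1, the main helicase, had 4.60, 6.24 and 4.63 CPM with miR-497-5p and 7.57, 6.49 and 6.99 CPM in controls (-0.45 ± 0.12, adjusted p = 0.000835). Its level is uncertain, since 48.6% of its exon bases are shared with other annotated genes and reads in shared bases may not have been counted. EIF4A3, the helicase of the exon junction complex, had 16.8, 15.9 and 15.3 CPM at 72 h with miR-497-5p against 21.5, 21.7 and 24.04 CPM (-0.49 ± 0.062, adjusted p = 3.97e-09). At 12 h it was higher, with 98.5, 93.6 and 97.7 CPM against 88.5, 83.6 and 86.9 CPM in controls (0.16 ± 0.048, adjusted p = 0.0173), a call lost without control replicate 2 or miR-497-5p replicate 3. Of the proteins that stimulate the helicase, EIF4B rose and EIF4H fell. EIF4B, a TOP-type mRNA with a 7mer-m8 site (ENSG00000063046, chr12:53006158-53042209, plus strand), had 859, 882 and 855 CPM at 72 h with miR-497-5p and 599, 606 and 601 CPM in controls (0.52 ± 0.030, adjusted p = 7.58e-20). At 12 h it was lower, with 258, 269.9 and 269 CPM against 287, 290.3 and 298 CPM (-0.14 ± 0.031, adjusted p = 0.00152). The pull-down held 403, 373 and 388 CPM of it with miR-497-5p at 72 h against 281, 292 and 291 CPM in controls (0.43 ± 0.085, adjusted p = 0.000414). EIF4H had 29.1, 22.9 and 31.2 CPM there with miR-497-5p and 42.9, 64.7 and 52.4 CPM in controls (-0.93 ± 0.15, adjusted p = 6.28e-05), the largest fall of a member in the pull-down.

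Cap-binding proteins fell, and the 4E-BPs that compete for eIF4E moved apart. EIF4E itself (ENSG00000151247, chr4:98871684-98930637, minus strand) had 19.7, 20.8 and 18.96 CPM with miR-497-5p at 72 h and 23.2, 24.6 and 27.03 CPM in controls (-0.33 ± 0.065, adjusted p = 1.83e-05). At 12 h the arms had 69.9, 74.8 and 75.2 CPM and 74.8, 79.5 and 82.3 CPM (-0.11 ± 0.053, adjusted p = 0.209), which did not pass. The cap-binding repressor EIF4E2 fell in the pull-down at 72 h, with 60.9, 68.5 and 67.3 CPM against 107, 89.4 and 92.6 CPM in controls (-0.56 ± 0.11, adjusted p = 0.000543), and in RNA-seq (-0.30 ± 0.044). EIF4EBP1 had 218, 209 and 209 CPM with miR-497-5p and 282, 279 and 288 CPM in controls in the 72 h RNA-seq libraries (-0.42 ± 0.040, adjusted p = 3.02e-12). At 12 h it was slightly higher (0.12 ± 0.040, adjusted p = 0.0311), with arms of 196, 167 and 179 CPM and 167, 163 and 167 CPM that meet at 167 CPM, and leaving out any library but miR-497-5p replicate 2 ended the call (adjusted p up to 0.281). EIF4EBP2 (ENSG00000148730, chr10:70404379-70428618, plus strand) had higher values at both times in both assays, and the largest rise of a member in RNA-seq at 12 h. Its RNA-seq values were 567, 564 and 584 CPM with miR-497-5p at 72 h against 321, 321 and 315 CPM in controls (0.84 ± 0.032, adjusted p = 1.86e-26), and 159, 163 and 158 CPM at 12 h against 114, 112 and 113 CPM (0.50 ± 0.033, adjusted p = 2.25e-15). Each of these comparisons is free of overlap. In the pull-down it had 120.3, 137 and 129 CPM at 72 h against 66.5, 54.9 and 62.7 CPM in controls (1.07 ± 0.13, adjusted p = 4.94e-07), and 97.2, 78.5 and 92.7 CPM at 12 h against 53.8, 65.8 and 70.4 CPM (0.50 ± 0.12, adjusted p = 0.066), which did not pass.

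**Figure D2:**
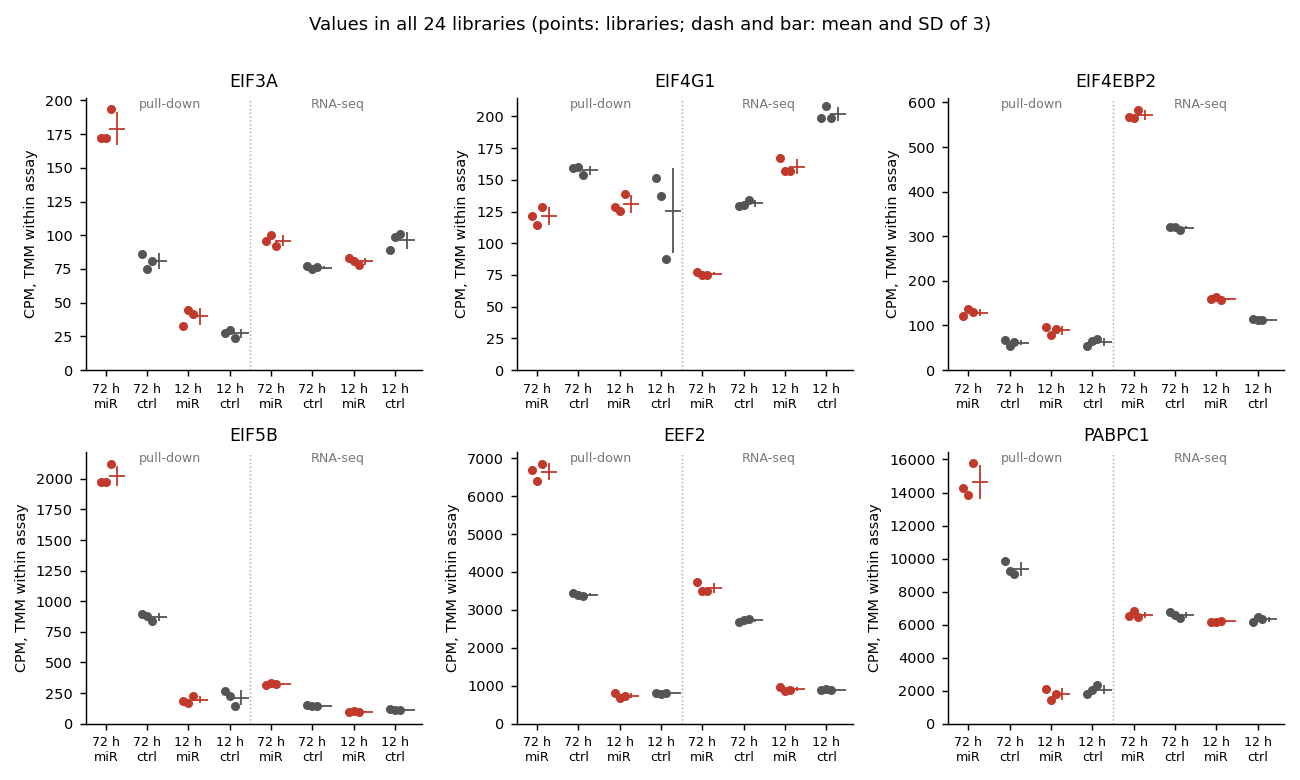
CPM with TMM scaling within each assay (y axes from 0) in every library for EIF3A, EIF4G1, EIF4EBP2, EIF5B, EEF2 and PABPC1, with miR-497-5p in red and control in grey, pull-down left of RNA-seq and 72 h left of 12 h. Dashes and bars give the mean and SD of 3 libraries. EIF5B in the pull-down at 72 h stands at 1976 to 2122 CPM with miR-497-5p against 839 to 899 CPM in controls.

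Among the factors of start-codon selection and subunit joining, EIF5B (ENSG00000158417, chr2:99337353-99401326, plus strand) changed most and EIF6 moved against it. EIF5B had 316, 329.8 and 325 CPM in RNA-seq with miR-497-5p at 72 h against 149, 145 and 144 CPM in controls (1.14 ± 0.038, adjusted p = 8.5e-29). The 72 h pull-down held 1976, 1976 and 2122 CPM of it with miR-497-5p against 899, 879 and 839 CPM (1.22 ± 0.15, adjusted p = 1.61e-05), and the difference between the assays, 0.052 ± 0.051, did not pass (adjusted p = 0.591). At 12 h its RNA-seq level was lower, with 97.5, 102 and 95.97 CPM against 118, 108 and 113 CPM in controls (-0.20 ± 0.038, adjusted p = 0.000214). The effect at 72 h minus that at 12 h was 1.34 ± 0.054, adjusted p = 5.2e-25. EIF6 had 114, 115 and 119 CPM with miR-497-5p at 72 h against 199.9, 183 and 185 CPM (-0.71 ± 0.040, adjusted p = 2.63e-20), and 362, 328 and 342 CPM at 12 h against 298, 311 and 316 CPM (0.16 ± 0.037, adjusted p = 0.00232). EIF5 rose at 72 h in RNA-seq (0.26 ± 0.037) and was not called in the pull-down (0.17 ± 0.087).

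Of the 6 elongation factors, EEF1A1, EEF1G and EEF2 rose in both assays at 72 h, and EEF1D and EIF5A fell in both. EEF2, the translocase (ENSG00000167658, chr19:3976056-3985469, minus strand), had 6689.6, 6394 and 6839 CPM in the pull-down with miR-497-5p against 3449, 3401 and 3355 CPM in controls (0.97 ± 0.072, adjusted p = 3.44e-10). In RNA-seq it had 3723, 3511 and 3489.8 CPM against 2690.4, 2727 and 2762 CPM (0.39 ± 0.031, adjusted p = 4.81e-14). The pull-down rise was the larger by 0.56 ± 0.040 (adjusted p = 4.97e-08). EEF1A1, the carrier of aminoacyl-tRNA (ENSG00000156508, chr6:73515750-73523797, minus strand), had 4931, 4725 and 4792 CPM in the pull-down with miR-497-5p against 3191, 3301 and 3143 CPM (0.58 ± 0.068, adjusted p = 4.24e-07). In RNA-seq it had 14389, 14798 and 14690.0 CPM against 12349.9, 12452 and 12196 CPM (0.25 ± 0.023, adjusted p = 5.67e-13), again a smaller rise, by 0.32 ± 0.034. At 12 h neither gene was called in either assay. EEF1D, of the complex that recharges EEF1A1 with GTP, had 267, 267 and 260.5 CPM with miR-497-5p at 72 h and 403, 419.5 and 409.8 CPM in controls (-0.63 ± 0.034, adjusted p = 4.76e-21), and it fell in the pull-down by 0.44 on the log2 scale. EEF1B2 of the same complex rose in RNA-seq (0.16 ± 0.031 at 72 h and 0.14 ± 0.031 at 12 h) and had -0.14 ± 0.091 in the pull-down at 72 h. EEF1G rose by 0.47 ± 0.12 in RNA-seq, on values of 9.15 to 14.7 CPM that are uncertain, because 99.9% of its exon bases are shared with another annotated gene, and its pull-down call was lost without any of the control replicates or miR-497-5p replicate 3 (adjusted p up to 0.0912). Shares of exon bases that overlap other genes were also high for EIF3L (51.8%), EEF1D (34.0%), EIF4E2 (24.2%), EIF4A2 (17.9%), EEF1B2 (17.4%) and EIF6 (17.3%), whose values are uncertain to that extent. EIF5A, which relieves stalled ribosomes and has a 7mer-m8 site (ENSG00000132507, chr17:7306999-7312463, plus strand), had 1389, 1345 and 1474 CPM in the pull-down with miR-497-5p against 2313, 2326 and 2386 CPM (-0.74 ± 0.076, adjusted p = 6.39e-08). In RNA-seq it had 1436, 1365 and 1366 CPM against 1973, 1958 and 2003 CPM in controls (-0.51 ± 0.028, adjusted p = 7.56e-21).

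PABPC1, the protein that coats poly(A) tails (ENSG00000070756, chr8:100685816-100722809, minus strand), was the member that changed in the pull-down alone. It had 14302, 13842 and 15765 CPM in the pull-down with miR-497-5p at 72 h against 9867, 9219.7 and 9049.9 CPM in controls (0.64 ± 0.11, adjusted p = 0.000109). The RNA-seq arms overlapped, with 6526, 6802 and 6446 CPM and 6781, 6562 and 6416 CPM (0.001 ± 0.025, adjusted p = 0.982), and under scaling to library totals the RNA-seq value was -0.11 and called lower. The pull-down effect exceeded that of RNA-seq by 0.62 ± 0.056 (adjusted p = 6.42e-07). Of the 44 members called in RNA-seq at 72 h, 21 had the same call in the pull-down, 2 the opposite one, and 21 had none there (7 higher and 14 lower in RNA-seq). Of the 14 members higher in the pull-down, 13 were among the 22 higher in RNA-seq, and of the 10 lower, 8 were among the 22 lower. The size often differed between the assays. With the RNA-seq effect subtracted, 10 members were higher and 12 lower, against 7.46% and 7.01% of 16896 genes. That split rests on the scaling, being 18 to 5 with library totals, 15 to 12 in DESeq2 and 13 to 9 with a length offset. The fit pooled the spread of both assays, so standard errors can lie below those of the pull-down effect, as for PABPC1. Its p-values may be too small. EIF3A, EEF2, PABPC1, EIF4G1, EEF1A1 and EIF3D were among the 10, and EIF3M, EIF3J, EIF4G3, EIF2S2, EIF5A and EIF4H among the 12. Leaving out single libraries ended the calls of EIF4H (10 of 12 libraries, the exceptions being replicate 3 of the miR-497-5p pull-down and replicate 1 of the control pull-down), EIF3D (RNA-seq control replicates 1 and 3 and miR-497-5p replicates 2 and 3) and EIF6 (RNA-seq control replicate 1 and miR-497-5p replicates 1 and 2), with adjusted p up to 0.119.

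**Figure D3:**
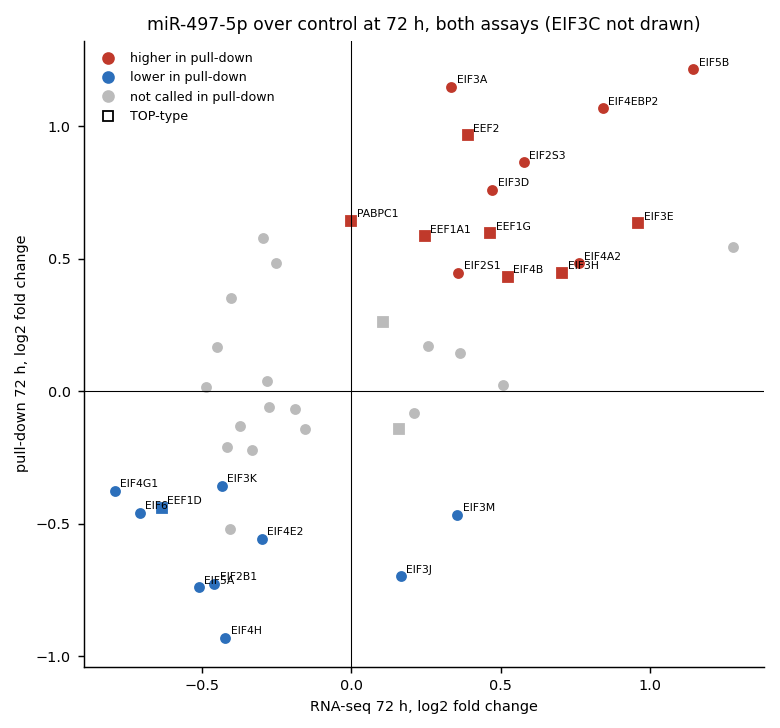
Log2 fold change, miR-497-5p over control at 72 h, in the pull-down (y axis) against RNA-seq (x axis) for 44 members. EIF3C is left out for its low counts, squares are TOP-type, and red and blue mark calls in the pull-down. PABPC1 lies at 0 on the x axis and 0.64 on the y axis, and EIF3J and EIF3M lie at the lower right.

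Between 12 h and 72 h after the control mimic, all 10 TOP-type members were higher at 72 h, with a median of 1.03, and of the other 35 members 4 were higher and 31 lower, with a median of -0.48. By annotated start the split was less clean. Of the 9 members whose start has the letters of a TOP tract 5 were higher and 4 lower. Those with another start, 27 members, gave 4 higher and 23 lower. EIF2S3, EIF3D, EIF3K and EIF3M have the tract and were lower, and they are not on the TOP-type list. Over all genes 36.1% were higher and 38.4% lower, and scaling to library totals put the median of all genes at -0.25, against -0.0020 with TMM. EEF2 had 2690.4, 2727 and 2762 CPM at 72 h and 899, 912 and 884 CPM at 12 h (1.60 ± 0.032). EEF1A1 had 12349.9, 12452 and 12196 CPM at 72 h against 5289, 5309 and 5397 CPM at 12 h (1.21 ± 0.023). EIF3E had 974, 969 and 959.7 CPM at 72 h and 412, 406 and 427 CPM at 12 h (1.22 ± 0.031). The times did not overlap in any of these genes. Among the TOP-type members EEF1G showed the largest value (2.53 ± 0.14, on low counts), and PABPC1 the smallest (0.06 ± 0.025), which became -0.19 with library totals and lost its call without replicate 1 of either time, 12 h replicate 3 or 72 h replicate 2 (adjusted p up to 0.282). The 4 others that rose were EIF4EBP2, with 321, 321 and 315 CPM at 72 h against 114, 112 and 113 CPM at 12 h (1.50 ± 0.033), EIF4EBP1 (0.78 ± 0.040), EIF4A2 (0.61 ± 0.037) and EIF5B (0.37 ± 0.038).

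Both 4E-BPs were thus higher at 72 h in control cells, while the cap-binding protein and most of its partners were lower. EIF4E had 23.2, 24.6 and 27.03 CPM at 72 h and 74.8, 79.5 and 82.3 CPM at 12 h in control cells (-1.66 ± 0.057). EIF4A3 had 21.5, 21.7 and 24.04 CPM at 72 h against 88.5, 83.6 and 86.9 CPM at 12 h (-1.95 ± 0.053), and EIF3B, an eIF3 core subunit, had 42.8, 43.8 and 43.4 CPM against 153, 156 and 156 CPM (-1.84 ± 0.044). The largest fall was that of EIF2B3, the gamma subunit of eIF2B, with 6.61, 6.30 and 6.70 CPM at 72 h and 25.3, 26.6 and 26.1 CPM at 12 h (-1.99 ± 0.087). All 5 eIF2B and all 3 eIF2 subunits were lower. Of 77 cytosolic ribosomal proteins 74 were higher and 3 lower, with a median of 1.23, and the TOP mRNAs TPT1, NAP1L1, HNRNPA1, RACK1 and FAU, which are not members, were higher as well. Squamous markers moved with time too, 14 of 22 being lower at 72 h and none higher, with sums of 11.6 to 12.7 CPM at 72 h against 195 to 485 CPM at 12 h, and their part was not tested. Time in culture and time after transfection cannot be told apart here.

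**Figure D4:**
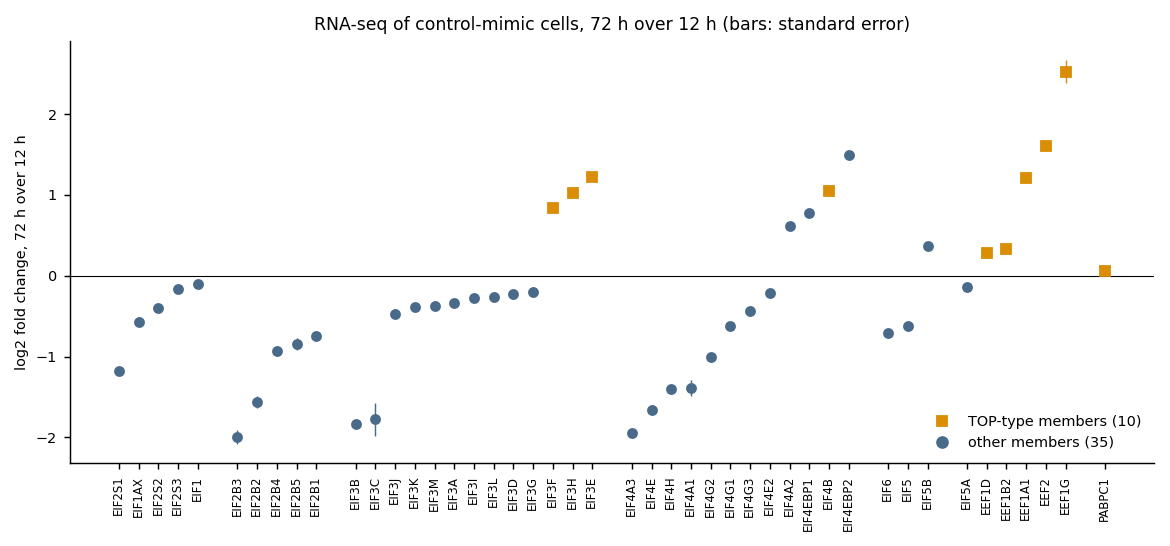
Log2 fold change in RNA-seq of control-mimic cells, 72 h over 12 h (y axis, bars are the standard error of 3 libraries per arm), for the 45 members grouped by role and sorted within each role. The 10 TOP-type members (orange squares), a list from background knowledge and not from annotated starts, lie between 0.060 and 2.53. The other 35 (blue circles) lie between -1.99 and 1.50.

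With miR-497-5p at 72 h, the TOP-type members were mostly higher: 8 of 10 in RNA-seq, with EEF1D lower and a median of 0.32, and 7 of 10 in the pull-down, with EEF1D lower and a median of 0.52. The other 35 members had 14 higher and 21 lower in RNA-seq (median -0.28), and 7 higher and 9 lower in the pull-down (median 0.017). This comparison shares its 72 h control libraries with the comparison of times. No likeness between them is drawn for that reason. EIF3E had 0.96 with miR-497-5p and 1.22 for time, and EEF2 0.39 and 1.60, while EEF1D had -0.63 and 0.29. Outside the TOP-type list EIF4EBP2 had 0.84 with miR-497-5p and 1.50 for time, EIF4EBP1 -0.42 and 0.78, and EIF4G3 1.28 and -0.44. At 12 h the TOP-type members gave 2 higher and 1 lower in RNA-seq. Of 77 ribosomal proteins, 40 were higher and 27 lower in RNA-seq with miR-497-5p at 72 h (median 0.078), 10 higher and 39 lower in the pull-down (median -0.25), and 74 higher with none lower in RNA-seq at 12 h (median 0.22). Over all genes tested the RNA-seq effect fell with exon length at 12 h (Spearman rho -0.25) and hardly followed it at 72 h (0.055). The part of length in the ribosomal protein counts was not tested. Of the 27 members with another annotated start, 10 were higher and 17 lower in RNA-seq at 72 h, and of the 9 with a C and at least 4 further pyrimidines 8 were higher and 1 lower, the last being EIF3K. In the pull-down the 9 gave 6 higher and 2 lower and the 27 gave 4 higher and 7 lower. EIF2S3, EIF3D, EIF3M and EIF4A2, whose starts are printed above although they are not on the TOP-type list, were among the 8. In control cells over time, 5 of the 9 were higher and 4 lower. These shares describe the members, and no test was made of them.

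The 8 members with a seed site moved in both directions. In RNA-seq at 12 h EIF3M was higher and EIF3A and EIF4B were lower, and the other 5 were not called. The EIF3M call was lost without control replicate 2 or miR-497-5p replicate 2 (adjusted p up to 0.073). In the 37 members without a 7mer-m8 or 8mer site, 10 were higher and 2 lower at 12 h, the 2 being EIF4G1 and EIF5B. Those 2 hold shorter matches, 1 6mer in EIF4G1 and 3 in EIF5B. In RNA-seq at 72 h the 8 gave 4 higher and 4 lower, and the 37 gave 18 higher and 18 lower. In the pull-down at 72 h EIF3A and EIF4B were higher and EIF3M and EIF5A lower. The 37 gave 12 higher and 8 lower there. EIF3A was the one among the 8 to be higher in the pull-down and lower in RNA-seq at 12 h.

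The effect of the mimic differed between the times for 39 members. By the test of the effect at 72 h minus that at 12 h, 18 were higher and 21 lower, against 22.5% and 26.2% of genes. All 5 eIF2B subunits were lower in this contrast, with a median of -0.44, and the eIF4 group had 4 higher and 8 lower, with a median of -0.29. Of the 5 genes of eIF1 and eIF2, 4 were higher and 1 lower, with a median of 0.45. The eIF3 subunits were mixed, with 6 higher and 4 lower and a median of 0.052. EIF4G3 had the largest positive difference (1.42 ± 0.084, adjusted p = 5.2e-19), ahead of EIF5B. EIF6 had the largest negative one (-0.87 ± 0.054, adjusted p = 4.02e-18), ahead of EEF1D among those called. PABPC1, EIF3C, EIF3F, EIF3I, EEF1B2 and EEF1G were the 6 without a call. Leaving out 1 library ended the calls of EIF4E (72 h miR-497-5p replicate 3, 72 h control replicate 3 or 12 h control replicate 1), EIF4A1 (72 h miR-497-5p replicate 1 or 3, or 72 h control replicate 1) and EIF2B5 (72 h miR-497-5p replicate 3, 72 h control replicate 2, 12 h miR-497-5p replicate 1 or 12 h control replicate 3), with adjusted p up to 0.123.

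Levels per length, in TPM (length-scaled transcript shares), place the members over several orders of magnitude. In control RNA-seq at 72 h EEF1A1 stood at 5027 ± 68.1 TPM (SD, n = 3), PABPC1 at 3360.4 ± 89.6, EIF5A at 1703 ± 16.6 and EEF2 at 1641 ± 24.2 TPM. The cap-binding and exchange factors were far lower, EIF4E at 4.30 ± 0.339, EIF2B2 at 4.32 ± 0.521 and EIF2B5 at 5.06 ± 0.327 TPM, of which EIF4E and EIF2B2 do not differ beyond their spread. EIF4EBP1 reached 639.8 ± 9.05 TPM and EIF4EBP2 107 ± 1.42 TPM in the same libraries, so both repressors stood above EIF4E. TPM divides by all annotated exon bases, 14067 for EIF4E, 5446 for EIF2B2, 7257 for EIF4EBP2 and 1073 for EIF4EBP1. Distances between genes therefore depend on the annotation, and the level of EIF4E may be understated. With miR-497-5p EIF4EBP1 was at 413 ± 4.69 and EIF4EBP2 at 165 ± 4.05 TPM. Among paralogs EIF4G1 stood at 19.2 ± 0.0702 TPM and EIF4G3 at 12.05 ± 0.322 TPM with miR-497-5p, against 38.6 ± 0.776 and 5.76 ± 0.225 TPM in controls.

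The control pull-down did not mirror the levels of RNA-seq. EIF3J had 1176 ± 263 TPM in the control pull-down at 72 h and 90.8 ± 1.82 TPM in RNA-seq, and EIF2S2 had 2789.6 ± 147 TPM and 364 ± 4.90 TPM. EIF5B had 249.5 ± 8.50 TPM in the pull-down and 45.02 ± 0.711 TPM in RNA-seq. These 3 had the highest ratios of pull-down to RNA-seq level among the 45 in control cells at 72 h. At 12 h the same mRNAs were ahead by less, EIF3J with 423 ± 56.7 TPM in the pull-down and 179 ± 4.93 TPM in RNA-seq. PABPC1 changed sides, at 4452 ± 219 TPM in the control pull-down and 3360.4 ± 89.6 TPM in RNA-seq at 72 h, and at 1383 ± 145 TPM and 4562 ± 106 TPM at 12 h. EEF1A1 was below its RNA-seq level at both times, at 1218 ± 19.7 TPM in the pull-down at 72 h. The pull-down used a cytoplasmic extract and RNA-seq the RNA of the cells, and these levels are a description without a test.

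**Figure D5:**
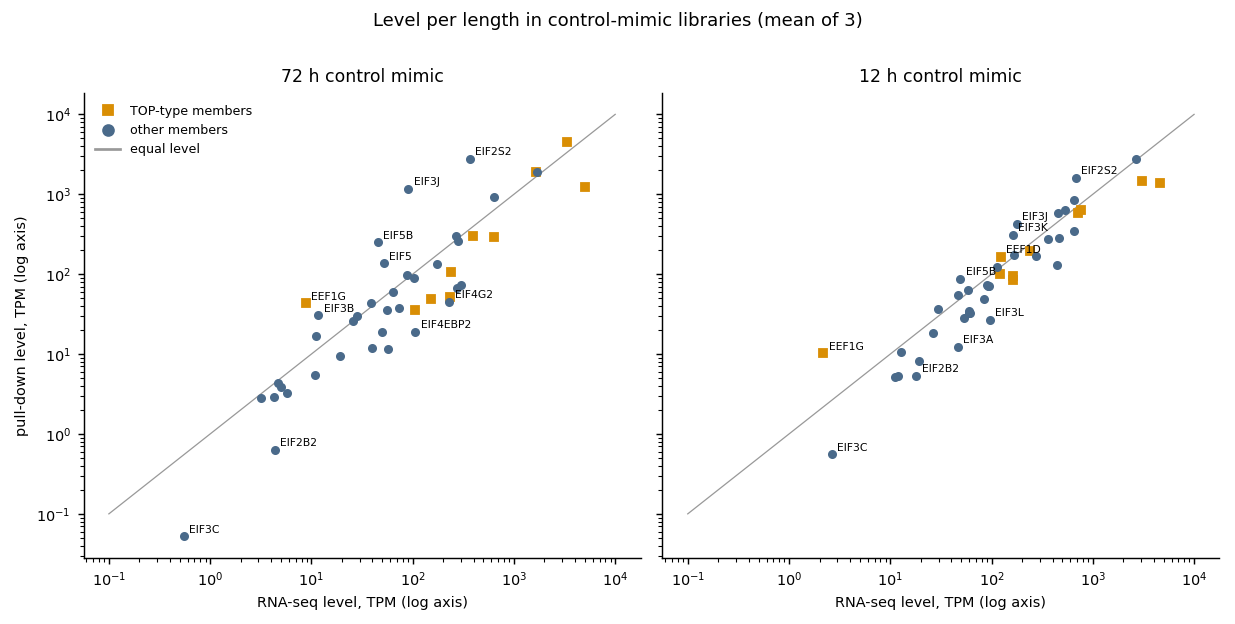
Mean TPM of 3 control libraries in the pull-down (y axis, log scale) against RNA-seq (x axis, log scale) for the 45 members, at 72 h and 12 h, with TOP-type members in orange and the line of equal level in grey. EIF3J, EIF2S2 and EIF5B lie above the line at both times and further above it at 72 h.

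Regulators and relatives of the factors, a list of 51 genes of which 26 are regulators, changed in both directions. In RNA-seq at 72 h 9 of the 26 regulators (34.6%) were higher and 12 (46.2%) lower, against 27.9% and 29.6% of all genes. The eIF2 kinases EIF2AK1 and EIF2AK4 (0.51 ± 0.037 and 0.43 ± 0.037), the PABPC1 partner PAIP1 (0.36 ± 0.033) and the mTORC1 inhibitor DDIT4 (0.74 ± 0.078) had the smallest adjusted p of those higher. LARP1, which binds TOP mRNAs, the mTORC1 repressor TSC2, the eIF4E kinase MKNK1 and the mTOR subunit MLST8 had the smallest adjusted p of those lower (-0.29 ± 0.039, -0.55 ± 0.074, -0.68 ± 0.10 and -0.24 ± 0.053). The largest fall was that of PAIP2B (-0.96 ± 0.24), named after its value was seen. LARP1 had 134, 137 and 135 CPM with miR-497-5p against 165, 167 and 166 CPM in controls at 72 h, and 159.8, 150.4 and 145 CPM against 174, 187 and 188 CPM at 12 h (-0.27 ± 0.038, adjusted p = 1.16e-06). At 12 h 3 regulators (11.5%) were higher and 3 (11.5%) lower in RNA-seq, against 7.25% and 5.3% of all genes. Those higher were PAIP1, the S6 kinase RPS6KB2 and the mTORC1 activator RHEB (0.12 ± 0.033, 0.13 ± 0.038 and 0.097 ± 0.034). Beside LARP1, PDCD4, an inhibitor of eIF4A, and the eIF2 kinase EIF2AK2 were lower (-0.33 ± 0.074 and -0.18 ± 0.041). In the pull-down at 72 h 4 regulators (15.4%) were higher and 2 (7.69%) lower, against 10.2% and 12.6% of all genes. Those lower were RPTOR and MTOR (-0.59 ± 0.15 and -0.73 ± 0.24). GIGYF2, a partner of EIF4E2 in repression, was higher there by 1.03 ± 0.20. Beyond RNA-seq it was higher at both times, by 0.93 ± 0.20 at 72 h and 0.80 ± 0.18 at 12 h.

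Of the 25 paralogs and further factors 23 were tested in RNA-seq at 72 h. Of these 9 (39.1%) were higher and 8 (34.8%) lower, against 27.9% and 29.6% of all genes. The enzyme that completes the hypusine of eIF5A, DOHH, also fell. It had 11.6, 10.5 and 10.7 CPM with miR-497-5p and 23.9, 27.8 and 24.4 CPM in controls in the 72 h RNA-seq libraries (-1.21 ± 0.076, adjusted p = 1.33e-18), and it fell in the pull-down (-1.18 ± 0.14, adjusted p = 4.03e-07). EIF5A2, the paralog of EIF5A, went the other way. It had 162, 159 and 164 CPM with miR-497-5p against 113, 111 and 112 CPM in RNA-seq (0.53 ± 0.044, adjusted p = 1.8e-14), and 107, 90.9 and 93.1 CPM against 42.6, 38.2 and 43.96 CPM in the pull-down (1.22 ± 0.14, adjusted p = 4.06e-07). EIF2A, the helicase DHX29 and the release factor GSPT1 were also higher in RNA-seq (0.89 ± 0.047, 0.80 ± 0.064 and 0.47 ± 0.040), and PABPC4, DENR and PELO lower (-0.37 ± 0.031, -0.29 ± 0.037 and -0.42 ± 0.068). At 12 h 3 of this list (13.0%) were higher and 1 (4.35%) lower in RNA-seq, against 7.25% and 5.3% of all genes. The release factor ETF1, the initiation factor EIF2D and DHPS, which starts the hypusine of eIF5A, were higher (0.15 ± 0.034, 0.16 ± 0.046 and 0.20 ± 0.070). The helicase DDX3X was lower in the 12 h RNA-seq libraries (-0.23 ± 0.046, adjusted p = 0.000296), and its pull-down effect at 12 h exceeded that of RNA-seq by 0.63 ± 0.13 (adjusted p = 0.029). Of TOP mRNAs that are not members, NAP1L1, TPT1, RACK1 and HNRNPA1 were higher in RNA-seq at 72 h (0.84 ± 0.029, 0.53 ± 0.025, 0.35 ± 0.025 and 0.30 ± 0.027), and FAU, which encodes a ribosomal protein fused to a ubiquitin-like protein, was lower (-0.17 ± 0.031). In the pull-down FAU had 1328, 1166 and 1209 CPM with miR-497-5p and 3109, 3039 and 3002 CPM in controls (-1.30 ± 0.074, adjusted p = 3.98e-12).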

How the data were processed

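RNA-seq and streptavidin pull-down were measured in 24 libraries of H2052 cells, 3 in each of 8 groups, and grouped by the labels. The deposited values are raw counts per gene identifier; per the submitters' processing notes and design text, Trimmomatic 0.36 trimmed the reads, STAR 2.5.2b placed them on GRCh38, and featureCounts of Subread 1.5.2 counted unique reads in exons. The sources used here do not state the strand setting. Symbols matched 56410 of 57500 identifiers (98.1%).

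From these counts, edgeR 4.0.16 (R 4.3.3) fitted a quasi-likelihood model with TMM scaling and its default expression filter over the 12 libraries of an assay. A second fit over the 12 libraries of each time gave the difference between the effects in pull-down and RNA-seq. Benjamini-Hochberg adjustment ran across every gene tested, with a threshold of 0.05, and log2 fold changes are given ± the standard error. CPM carry TMM scaling within an assay and are not compared between assays. TPM used the exon lengths in the deposited files. Seed sites were read from GENCODE release 44, exon overlaps from the exon positions in the deposited files, and start sites from RefSeq. The fits were tested on simulated data. DESeq2 1.42.0, other scalings and filters, a length offset, a replicate block, fits of the compared groups alone and leaving out each library were the alternatives.

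The members and lists were chosen with earlier results of these data known. All 45 members were tested in every comparison. Values in every library are given for up to 6 called members in each direction with the largest fold change, for 9 preset factors, and for further members chosen after their values were seen. Of other lists, up to 4 called genes in each direction with the smallest adjusted p are named. A further gene of the list of other TOP mRNAs is not reported here.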

Additional observations from a re-analysis of the deposited data

Results flagged for a closer look

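The effect of miR-497-5p in RNA-seq went in opposite directions at the 2 times for 9 members, each called at both times. The 9 were picked for those calls and for a called difference (edgeR quasi-likelihood test of the effect at 72 h minus that at 12 h). A called difference largely follows from opposite calls in the same libraries, so its p-value adds little to them. EIF5B (difference 1.34, adjusted p = 5.2e-25), EIF4B (0.66, adjusted p = 1.49e-17) and EIF3A (0.59, adjusted p = 1.33e-10) were higher at 72 h and lower at 12 h. EIF6 (-0.87, adjusted p = 4.02e-18), EEF1D (-0.74, adjusted p = 7.86e-18), EIF4A3 (-0.65, adjusted p = 1.51e-09), EIF3K (-0.62, adjusted p = 1.3e-12), EIF4EBP1 (-0.54, adjusted p = 5.37e-11) and EIF2B4 (-0.44, adjusted p = 2.46e-05) were lower at 72 h and higher at 12 h. The 12 h calls of EIF4EBP1, EEF1D, EIF2B4 and EIF4A3 were each lost when some single library was left out. Squamous markers varied between the RNA-seq libraries at 12 h, with sums that overlapped between the arms, and their part was not tested.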

How the results depend on the processing

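At 12 h in RNA-seq, the 11 members higher became 5 with library totals and 7 with only the groups compared, and the 4 lower became 9 with library totals. In the pull-down at 12 h the 1 member higher became 2 with library totals, DESeq2 or no filter, and 0 with the length offset, only the groups compared, the replicate block or the replicate block with the length offset. DESeq2 called 1 lower there. For the difference of pull-down and RNA-seq effects at 12 h, 1 higher became 2 with library totals or no filter and 0 with the replicate block and length offset, and DESeq2 called 3 lower. At 72 h its 10 higher and 12 lower became 18 and 5 with library totals, which moved the median of all genes to 0.14. Causes were not tested. Leaving out single libraries gave 6 to 12 higher in RNA-seq at 12 h (6 without control replicate 2), 0 to 1 higher and 0 to 1 lower in the pull-down at 12 h, 12 to 13 higher and 8 to 9 lower in the pull-down at 72 h, and 20 to 22 lower in RNA-seq at 72 h. It gave 0 to 3 higher and 0 to 2 lower for the assay difference at 12 h, 8 to 14 and 11 to 12 at 72 h, and 3 to 5 eIF2B subunits lower in RNA-seq at 72 h. PABPC1 reversed to -0.11 at 72 h in RNA-seq (adjusted p = 0.00011) and to -0.19 in control cells over time with library totals. EIF3F reversed to -0.11 in the effect at 72 h minus that at 12 h with the length offset (adjusted p = 0.0369), and to -0.11 when a replicate block joined that offset (adjusted p = 0.0313). Calls kept in every alternative were 38 of 44 in RNA-seq at 72 h, 18 of 24 in the pull-down at 72 h, 6 of 15 in RNA-seq at 12 h and 0 of 1 in the pull-down at 12 h. The labels do not say whether replicate numbers pair the libraries. Correlations of same-numbered libraries ran from -0.139 to 0.174, which cannot exclude a pairing with 3 libraries per group. In RNA-seq at 12 h each library correlated best with its own number, a hint from the data and not the design. The shallowest pull-down library, with 8262425 counts, limits the pull-down at 72 h for genes with few counts such as EIF3C.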
